A study of Mus musculus with 20 samples.

Results

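Histone H3 trimethylated at lysine 27 (H3K27me3) was compared, gene by gene, between embryoid bodies (EB) made from p150-depleted and from wild type mouse embryonic stem (ES) cells. The comparison used 2 of the 20 samples of the series, 1 ChIP-seq library a side, and so gives a description with no test and no replicate check. The deposited H3K27me3 table listed 20462 genes, all of which belong to the comparison, and 15220 of them had a mean signal of at least 0.5 over the 4 H3K27me3 libraries and were kept. The other 5242 genes were too low for a ratio and are not counted below. TL1 mouse ES cells were grown with serum and LIF, the cytokine that sustains the undifferentiated state. The EB, cell aggregates in which ES cells differentiate, came from the same cells in that medium lacking LIF. The knockout libraries came from cells in which the p150 subunit of chromatin assembly factor 1 (gene Chaf1a) was depleted with CRISPR/Cas9, and the wild type libraries from TL1 cells without that depletion. Whether the knockout is 1 clone was not given in the sources used here. The titles of the EB ChIP samples hold a 7 whose meaning is not stated, and no label gives the time in culture in words. The same 4 groups (wild type ES, knockout ES, wild type EB, knockout EB) had 1 H3K4me3 library each and 2 RNA-seq libraries each. The labels do not say that the RNA libraries came from separate cultures, so their p-values measure the spread between libraries, which may be technical.

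H3K27me3 is placed by Polycomb repressive complex 2 and marks genes that are kept silent, many of them regulators of development. In ES cells such genes often carry H3K4me3, the mark of active promoters, at the same time. During differentiation the mark spreads over genes of the pluripotent state as they are switched off, and leaves the genes of the lineage that is formed. Chromatin assembly factor 1 deposits new histones H3 and H4 behind the replication fork, where marks carried by parental histones must be re-established on the new ones. The study asked how this factor affects differentiation of mouse ES cells.

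The values used below are the deposited H3K27me3 signals per gene. They were whole multiples of 1 step, 0.04 in wild type EB and 0.02668 in the other 3 libraries, which gives the reads behind each value. Wild type EB had 4130691 reads summed over genes with a median of 39 per gene, and knockout EB had 5959392 with a median of 67. The signal was larger in longer loci (Spearman rho 0.386 between the wild type EB signal and locus length over 14311 genes), so each gene was compared with itself. Each ratio is log2 of (knockout + 0.25) over (wild type + 0.25), centred on the median of the genes kept, which before centring lay at 0.12. A ratio of 1 in size, that is 2-fold, was counted as lower or higher. Counting intervals are 95% intervals of the uncentred ratio of reads. They cover counting error only.

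The base composition of a promoter is of interest here because Polycomb binding in mammals is tied to unmethylated CG-rich sequence. The 250 bases before the start are shown for Nodal and its co-receptor gene Tdgf1, which had less signal in knockout EB, for the cardiac factor Nkx2-5, which had less signal and less RNA, and for Snx33, which had more signal. They come from RefSeq promoters on GRCm38.p6, run 5′ to 3′ on the strand of the gene, and have each CG in capitals.
Nodal: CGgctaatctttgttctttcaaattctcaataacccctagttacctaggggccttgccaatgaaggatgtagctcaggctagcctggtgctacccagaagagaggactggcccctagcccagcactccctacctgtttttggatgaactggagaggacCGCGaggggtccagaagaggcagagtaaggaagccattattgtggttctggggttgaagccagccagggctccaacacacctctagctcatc
Tdgf1: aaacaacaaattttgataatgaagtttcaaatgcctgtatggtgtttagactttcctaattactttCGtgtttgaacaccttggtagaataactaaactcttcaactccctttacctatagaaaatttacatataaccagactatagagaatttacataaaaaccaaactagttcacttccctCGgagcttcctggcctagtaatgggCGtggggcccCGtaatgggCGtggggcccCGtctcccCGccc
Nkx2-5: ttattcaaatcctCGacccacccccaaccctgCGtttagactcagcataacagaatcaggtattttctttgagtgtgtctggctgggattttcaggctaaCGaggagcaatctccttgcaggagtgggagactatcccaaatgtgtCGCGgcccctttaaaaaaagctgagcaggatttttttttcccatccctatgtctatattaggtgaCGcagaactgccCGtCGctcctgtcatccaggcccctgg
Snx33: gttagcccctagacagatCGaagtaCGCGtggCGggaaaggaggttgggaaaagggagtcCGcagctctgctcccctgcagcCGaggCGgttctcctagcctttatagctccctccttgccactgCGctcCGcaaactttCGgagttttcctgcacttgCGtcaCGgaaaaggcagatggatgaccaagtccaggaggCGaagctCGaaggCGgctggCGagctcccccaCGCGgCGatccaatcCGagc
The Nodal stretch (chr10:61417722-61417971, plus strand) held 3 CG, and 71.0% of 32851 promoters in the same table held at least as many. The Tdgf1 stretch (chr9:110946159-110946408, minus strand) held 7, reached by 46.3% of promoters. The Nkx2-5 stretch (chr17:26841566-26841815, minus strand) held 8, reached by 43.0%. The Snx33 stretch (chr9:56928372-56928621, minus strand) held 20, reached by 17.9%. The motif CG reads the same on both strands. These counts describe the windows shown and no test was made of them.

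The cells of the EB differed between the genotypes in their markers. Summed RNA of 5 pluripotency markers was 103 and 177 FPKM in wild type against 1407 and 1138 in knockout EB, and all 5 rose, where limma called 20.0% of 15428 genes higher and 25.9% lower (adjusted p under 0.05). The sum of 6 cardiomyocyte markers was 4465 and 3200 against 28.5 and 262, that of 5 blood markers 2241 and 518 against 28.4 and 27.97, and that of 6 fibroblast markers 669 and 859 against 15.1 and 46.3. Every marker of the latter 3 sets fell. Endothelial markers fell at 3 of 4, endoderm markers at 3 of 5 and neural markers at 2 of 2 tested, and no marker was at 0 in either group. In bulk samples, fewer cells of a type and less mark or RNA per cell cannot be told apart, and the part of cell makeup in the H3K27me3 differences was not tested. RNA of Chaf1a itself was 31.9 FPKM in wild type against 33.3 in knockout EB (log2 difference 0.06, limma adjusted p = 0.76). An edit that stops the protein need not change the RNA level, so this value does not check the labels.

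In knockout EB, H3K27me3 was 2-fold lower at 1294 of 15220 genes (8.50%) and 2-fold higher at 388 (2.55%). Lower genes made up 76.9% of those past 2-fold. With the values taken as deposited they made up 62.5% (1098 lower and 658 higher), and with each library scaled to its summed signal 56.1% (1035 and 810). Under the latter scaling the median ratio of all genes kept was 0.17 and not 0, since it is not centred. At the threshold, the last gene counted as lower had a ratio of -1.0001 and the first one not counted -0.99899, and on the higher side these were 1.0033 and 0.99901. The lower class held all 39 Hox genes and 27 pluripotency genes.

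The 1294 lower genes had a median signal of 3.94 in wild type ES, 3.00 in knockout ES, then 17.7 in wild type EB against 5.96 in knockout EB. The knockout EB median thus lay between the ES values and the wild type EB value. These genes held 6.29% of the summed reads in wild type ES, 4.65% in knockout ES, then 20.3% in wild type EB against 7.78% in knockout EB. The 388 higher genes had medians of 4.90, 5.78, 2.18 and 5.68 in the same order, so that wild type EB was the low library among the 4. The EB values chose both classes, and only the ES values are free of that choice.

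**Figure D1:**
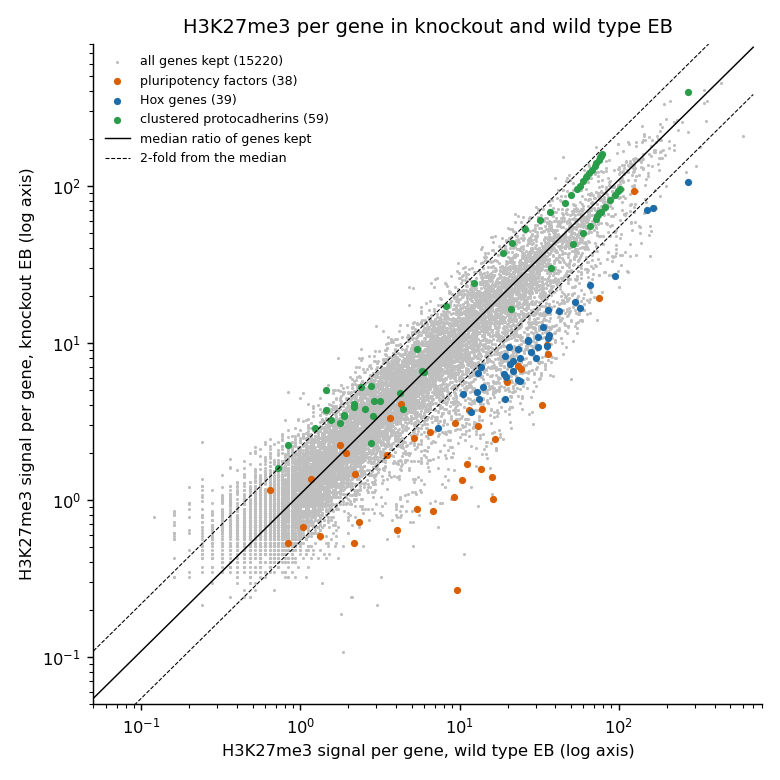
Each point is 1 of the 15220 genes kept, by its H3K27me3 signal in wild type EB (x) and knockout EB (y), on log axes; the solid line is the median ratio and the dashed lines lie 2-fold from it. All 39 Hox genes and 27 of 38 pluripotency genes lie below the lower dashed line, against 8.50% of all genes kept.

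Pluripotency genes carried much less H3K27me3 in knockout EB. Of 45 genes on the list, 38 were kept. Of these, 27 were 2-fold lower and 0 were 2-fold higher, against 8.50% and 2.55% of all genes kept. Their median ratio was -1.85 against 0 over all genes kept. The median signal was 0.600 in wild type ES, 0.707 in knockout ES, then 9.32 in wild type EB against 1.95 in knockout EB. The 7 not kept were Dppa2, Dppa5a, Phc1, Trim28, Zfp42, Zfp57 and Zscan10. In RNA, 43 of the 45 rose and 0 fell, set against 20.0% and 25.9% of all genes tested. The list median of H3K4me3 was 12.9 in wild type EB against 28.3 in knockout EB. It was not higher at each gene with a lower H3K27me3: Gbx2 had H3K4me3 signals of 23.6 and 15.1 and Klf4 32.4 and 28.3.

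Pou5f1, the gene of the core factor OCT4 (mm10 chr17:35506018-35510772), had an H3K27me3 signal of 0.133 in both ES libraries and 16.6 in wild type EB against 2.45 in knockout EB. The mark was low in ES, high in wild type EB and between the ES and wild type EB values in knockout EB. The ratio was -2.77 (counting interval -3.10 to -2.43, from 416 and 92 reads). H3K4me3 at Pou5f1 was 10.5 in wild type EB against 39.3 in knockout EB. Its RNA was 35.3 and 65.9 FPKM in the wild type EB libraries and 547 and 508 in the knockout ones, with no overlap (log2 difference 3.42, SE 0.26, limma adjusted p = 0.00032). Sox2, its partner factor, had signals of 0.0534, 0.0267, 6.76 and 0.854 in the order wild type ES, knockout ES, wild type EB and knockout EB (ratio -2.79). Nanog, the third core factor, had 0.374, 0.400, 2.32 and 0.720 (ratio -1.53, counting interval -2.40 to -1.01). The Nanog values rest on 58 and 27 reads, and the interval is wider than that of Pou5f1.

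Genes of the NODAL pathway, which patterns the epiblast, were lower at the ligand, the co-receptor and the antagonists. Nodal, the ligand (mm10 chr10:61417972-61425338), had 0.213 in wild type ES, 0.0800 in knockout ES, then 16.3 in wild type EB against 1.01 in knockout EB (ratio -3.83, from 407 and 38 reads). Nodal RNA was 3.18 and 3.61 FPKM in wild type EB against 19.3 and 23.4 in knockout EB (log2 difference 2.34, limma adjusted p = 0.00024). Tdgf1, which encodes the co-receptor CRIPTO, had 0.187, 0.187, 10.3 and 1.33 (ratio -2.86). The antagonist genes Lefty1 and Lefty2, which are themselves induced by NODAL, had ratios of -1.92 and -1.66. RNA of Tdgf1, Lefty1 and Lefty2 rose by 2.69, 2.43 and 3.00 on the log2 scale (limma adjusted p = 0.00059, 0.02 and 0.0005). All 4 genes were at or below 3.17 in both ES libraries and highest in wild type EB.

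Several of the lowest ratios lay at genes with almost no mark in ES. Rbmxl2, a testis RNA-binding protein gene without introns, had 15.9 and 1.09 in wild type and knockout EB (ratio -3.71). Zfp296, a zinc finger gene of ES cells, had 13.0 and 0.907 (ratio -3.65). Utf1, a chromatin factor of undifferentiated cells, had 16.04 and 1.39 (ratio -3.44). The ES signals of these 3 genes were at most 0.107 in either genotype. The ranking asked for a mean signal of at least 2 over the 4 libraries, which these 3 genes reached through wild type EB. A gene near 0 in ES could enter it only with a high EB signal, so the selection partly sets this pattern.

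Other regulators of ES cells were lower to varied degrees. Klf2, Klf4 and Klf5, Krüppel-like factors of naive cells, had ratios of -3.06, -1.93 and -2.39. Fgf4, the growth factor that ES cells secrete and that starts their exit from pluripotency, had 32.7 in wild type EB against 4.00 in knockout EB (ratio -3.08). L1td1, an RNA-binding protein gene, had a ratio of -3.01, Eras, a RAS-like gene, -2.69, and Nr0b1, the nuclear receptor DAX1, -2.45. The genes below 2-fold held Esrrb, an orphan nuclear receptor gene, with 57.0 and 65.6 in ES and 124 in wild type EB against 93.2 in knockout EB (ratio -0.54). Its RNA rose by 3.51 (limma adjusted p = 0.0003) and its ES signal was not near 0. Dppa3, Tcl1, Rex2 and Tet1 had ratios of 0.53, 0.07, -0.09 and 0.19. RNA of these 4 rose by 3.53, 4.30, 3.33 and 1.90 (limma adjusted p = 0.0013, 0.00016, 0.00049 and 0.00032). Their H3K27me3 was low in all 4 libraries, between 0.64 and 2.59. A higher RNA level was therefore not always paired with a lower mark.

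**Figure D2:**
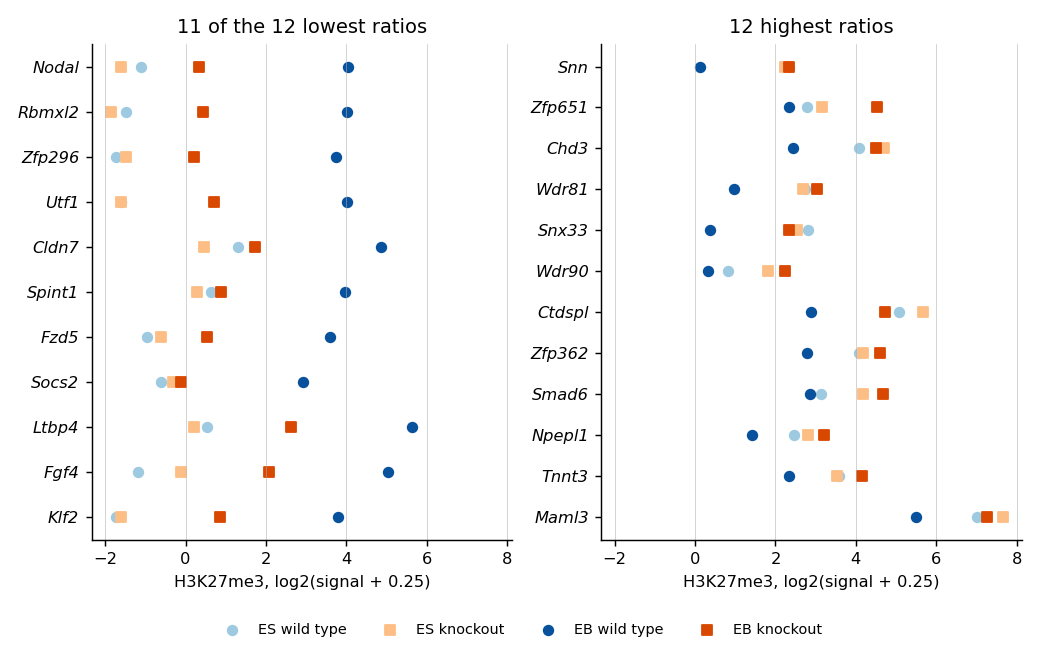
H3K27me3 as log2(signal + 0.25) in each of the 4 libraries (ES pale, EB dark; circles wild type, squares knockout) for 11 of the 12 lowest and for the 12 highest ratios among named genes with a mean signal of at least 2. At the low ratios wild type EB stands apart above the other 3 libraries (Nodal at 16.3), and at most of the high ratios it lies below them (Snn at 0.84). The EB ratio and the limit on the mean chose these genes.

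The 12 lowest ratios also held Cldn7, Spint1, Fzd5, Socs2 and Ltbp4. Cldn7, a tight junction claudin, had 2.21 in wild type ES, 1.12 in knockout ES, then 29.0 in wild type EB against 3.04 in knockout EB (ratio -3.28, from 726 and 114 reads). Its RNA did not pass the test (42.8 ± 0.553 FPKM in wild type against 52.9 ± 4.54 in knockout EB, SD, n = 2, limma adjusted p = 0.25). Spint1, a membrane protease inhibitor of epithelia, had 15.5 and 1.60 in the EB libraries (ratio -3.22) and an RNA difference of 0.45 (limma adjusted p = 0.047). Fzd5, a WNT receptor gene, had a ratio of -3.18, Socs2, an inhibitor of cytokine signalling, -3.16, and Ltbp4, a latent TGF-beta binding protein gene, -3.14. RNA of these 3 rose by 0.76, 0.87 and 0.98 (limma adjusted p = 0.017, 0.013 and 0.025).

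The formative and primed epiblast list, genes of the stage that follows the naive state, had 19 genes kept of 20, with a median ratio of -1.37, 11 lower and 0 higher. The shares over all genes kept were 8.50% lower and 2.55% higher. RNA of the list rose for 10 and fell for 3 of 19 tested, against 20.0% and 25.9% of all genes tested. Foxd3, a forkhead factor of the epiblast, had 1.07 and 1.09 in ES and 28.6 in wild type EB against 3.60 in knockout EB (ratio -3.03). Zic5 and Sox3 had ratios of -2.95 and -2.65. Cldn6, an embryonic claudin, had 14.6 and 2.21 in the EB libraries (ratio -2.72), with an RNA difference of -0.28 that did not pass (limma adjusted p = 0.14). Otx2, which drives the change from naive to primed cells, had 13.0 and 2.96 in the EB libraries (ratio -2.16), and its RNA rose by 1.39 (limma adjusted p = 0.00085).

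Hox genes, the ordered clusters that set position along the body axis and are textbook Polycomb targets, all had a lower mark in knockout EB. All 39 were kept. The 32 in loci under 10 kb had a median ratio of -1.66, against -0.12 over all genes kept in such loci. Of the whole list, 39 of 39 were 2-fold lower, against 8.50% of all genes kept. The lowest of the 39 ratios was -2.20 and their median -1.61. The median signal was 5.76 in wild type ES, 4.08 in knockout ES, then 23.9 in wild type EB against 8.72 in knockout EB. Knockout EB thus stood above both ES libraries and well below wild type EB. Medians by cluster were -1.67 for 11 Hoxa genes, -1.51 for 10 Hoxb, -1.60 for 9 Hoxc and -1.77 for 9 Hoxd. Neighbouring Hox loci share sequence and some overlap, as Hoxd3 and Hoxd4 do, so the 39 values are not independent.

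Within the clusters the ratios were spread over about 1 log2 unit. Among the ratios nearest 0 was that of Hoxa2 (13.1 in wild type against 6.40 in knockout EB, ratio -1.13), a gene of the hindbrain end. The lowest were at Hoxd11 (19.2 and 4.38, ratio -2.20), Hoxc12 (23.9 and 5.68, ratio -2.15) and Hoxc11 (23.2 and 5.82, ratio -2.07), of the posterior end. Hoxa10 (mm10 chr6:52231197-52240854) had 23.3, 14.6, 94.7 and 26.7 in wild type ES, knockout ES, wild type EB and knockout EB. Its ratio of -1.94 had a counting interval of -1.94 to -1.72 before centring, from 2367 and 1000 reads. The lower mark did not go with higher RNA. Of 21 Hox genes tested, 20 fell and 0 rose in knockout EB, against 25.9% and 20.0% of all genes tested. Hoxa10 RNA was 3.24 and 5.73 FPKM in wild type against 0.0468 and 0.571 in knockout EB (limma adjusted p = 0.0019). The median H3K4me3 signal of the Hox genes was 7.92 in wild type EB against 4.30 in knockout EB, so both marks were lower. In ES, the median Hox ratio was -0.51, with 0 of 39 genes 2-fold lower.

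Neuroectoderm genes were lower too, with 25 of 26 kept genes lower, 0 higher and a median ratio of -1.92. The shares over all genes kept were 8.50% lower and 2.55% higher. Their median signal was 6.84, 4.99, 36.0 and 10.95 in wild type ES, knockout ES, wild type EB and knockout EB. RNA fell for 11 of 13 tested and rose for 0, against 25.9% and 20.0% of all genes tested. Pax6, the eye and forebrain factor (mm10 chr2:105668900-105697364), had 25.2, 22.9, 160 and 51.8 (ratio -1.75, from 4002 and 1940 reads). Its RNA was 4.20 and 2.01 FPKM in wild type EB against 0.342 and 0.442 in knockout EB (limma adjusted p = 0.01). Sox1 had 34.2 and 6.86 in the EB libraries (ratio -2.40), Neurog2, a proneural factor, 20.7 and 4.24 (-2.35), and Zic1 36.2 and 7.82 (-2.30). Sox1, Neurog2 and Zic1 were under 1 FPKM on average in both EB groups. The broader families of developmental factors (GATA, FOX, PAX, SOX, TBX, LHX, NKX and a further homeobox family) had 58 of 73 kept genes lower, 0 higher and a median of -1.72. RNA of 39 of 54 tested fell and of 4 rose.

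Mesoderm and primitive streak genes were split. Of 29 kept, 15 were lower and 0 higher (8.50% and 2.55% over all genes kept), with a median of -1.05. Msgn1 and Tbx6 were not kept. RNA fell for 16 of 24 and rose for 4, against 25.9% and 20.0% of all genes tested. Eomes, a T-box factor of the streak, had 9.07, 7.44, 29.2 and 6.43 in wild type ES, knockout ES, wild type EB and knockout EB (ratio -2.27), and its RNA rose by 1.58 (limma adjusted p = 0.025). Tcf15, a basic helix-loop-helix factor, had 0.960, 1.33, 30.1 and 5.31 (ratio -2.57), and its RNA rose by 2.38 (limma adjusted p = 0.0013). Gsc, the organiser factor, had a ratio of -2.28 and Mesp1, of the earliest cardiac mesoderm, -2.02. T, the brachyury gene, had 24.4 and 12.7 in the EB libraries (ratio -1.05), and its RNA fell by 1.21 (limma adjusted p = 0.0042). The 17 kept genes in loci under 10 kb had a median of -1.36. Not all of them were lower: Snai1, in a locus of 4620 bases, had 3.00 and 3.44 (ratio 0.06). Other mesoderm genes had nearly equal signals in the EB libraries while RNA fell. Pdgfra, Twist2 and Kdr, named next, have longer loci of 45924, 46568 and 45632 bases. Pdgfra, a growth factor receptor gene, had 23.0 and 22.6 (ratio -0.15; RNA fell by 3.56, limma adjusted p = 0.00078). Twist2 had 29.1 and 32.1 (ratio 0.02; RNA fell by 2.96, limma adjusted p = 0.00052) and Kdr, the VEGF receptor gene, 17.8 and 17.8 (ratio -0.12; RNA fell by 1.89, limma adjusted p = 0.015).

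Heart genes had less RNA in knockout EB, with no shared direction in the mark. RNA of 15 of 15 cardiac factors fell (25.9% of all genes tested), and 4 of 15 had a 2-fold lower mark (8.50% of all genes kept). Their median ratio was -0.07 and turned positive under other scalings (0.05 as deposited, 0.11 scaled to the summed signal). The 5 factors in loci under 10 kb had a median of -1.34, against -0.12 over all genes kept in such loci. Nkx2-5 (mm10 chr17:26838664-26841565) had 4.91, 3.42, 37.1 and 10.8 in wild type ES, knockout ES, wild type EB and knockout EB (ratio -1.88, from 927 and 405 reads). Its RNA was 54.1 and 58.5 FPKM in wild type EB against 0.560 and 3.22 in knockout EB (fell by 4.48, limma adjusted p = 0.00055). Wild type EB thus had both the highest mark and the highest RNA of Nkx2-5, in bulk cells. Tbx18 (ratio -1.74), Tbx2 (-1.58) and Hand2 (-1.34) were the others past 2-fold. Hand1, on the mesoderm list, had 20.6 and 8.19 (ratio -1.43). Gata4 had 23.1 and 27.8 (ratio 0.14) and Gata6 20.8 and 19.8 (ratio -0.20), while their RNA fell by 1.75 and 3.12 (limma adjusted p = 0.0068 and 0.0014).

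Contractile and structural genes of the heart were not lower. Of 17 cardiomyocyte markers kept, 0 were lower and 1 was higher, with a median of 0.26, and Nppa and Nppb were not kept. RNA fell for 17 of 18 tested, against 25.9% of all genes tested. Tnnc1, cardiac troponin C, had 1.04 and 3.17 (ratio 1.28, counting interval 0.99 to 2.28) and RNA that fell by 4.54 (limma adjusted p = 0.0029). Myl4 had 9.56 and 18.3 (ratio 0.80) and Myh6 16.3 and 30.7 (ratio 0.77). Fibroblast and feeder markers had a median of 0.22 over 18 genes, 1 lower and 1 higher, with RNA lower in 15 of 17. For both lists, the counts of the mark are near the shares over all genes kept (8.50% lower, 2.55% higher). Col5a1, a collagen gene, had 36.8 and 75.6 (ratio 0.91). Thy1 was the lower member (ratio -1.64), and its RNA rose by 3.04 (limma adjusted p = 0.00047).

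Endoderm genes had 7 lower and 2 higher of 28 kept (median -0.25). For this and the next lists, the shares over all genes kept were 8.50% lower and 2.55% higher. Foxa2 (32.9 and 7.50, ratio -2.22), Sox17 (30.6 and 6.99, -2.22) and Foxa1 (28.5 and 8.51, -1.84), factors of the gut tube and definitive endoderm, were among the lower. Blood and endothelium markers had 5 lower and 0 higher of 20 kept (median -0.22), with Sox18 at -2.02 and Tal1, the stem cell leukaemia factor, at -1.35. Trophoblast genes had 8 lower and 0 higher of 17 kept (median -0.65), with Esx1 at -2.19 and Ascl2 at -1.86. RNA of Esx1 and Ascl2 rose by 2.08 and 1.18 (limma adjusted p = 0.0062 and 0.0066). Of 15 trophoblast genes tested, RNA rose for 5 and fell for 4, against 20.0% and 25.9% of all genes tested. Germline genes had 1 lower and 0 higher of 25 kept (median -0.30), near the shares over all genes. Their RNA rose at 18 of 22, against 20.0% of all genes tested.

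**Figure D3:**
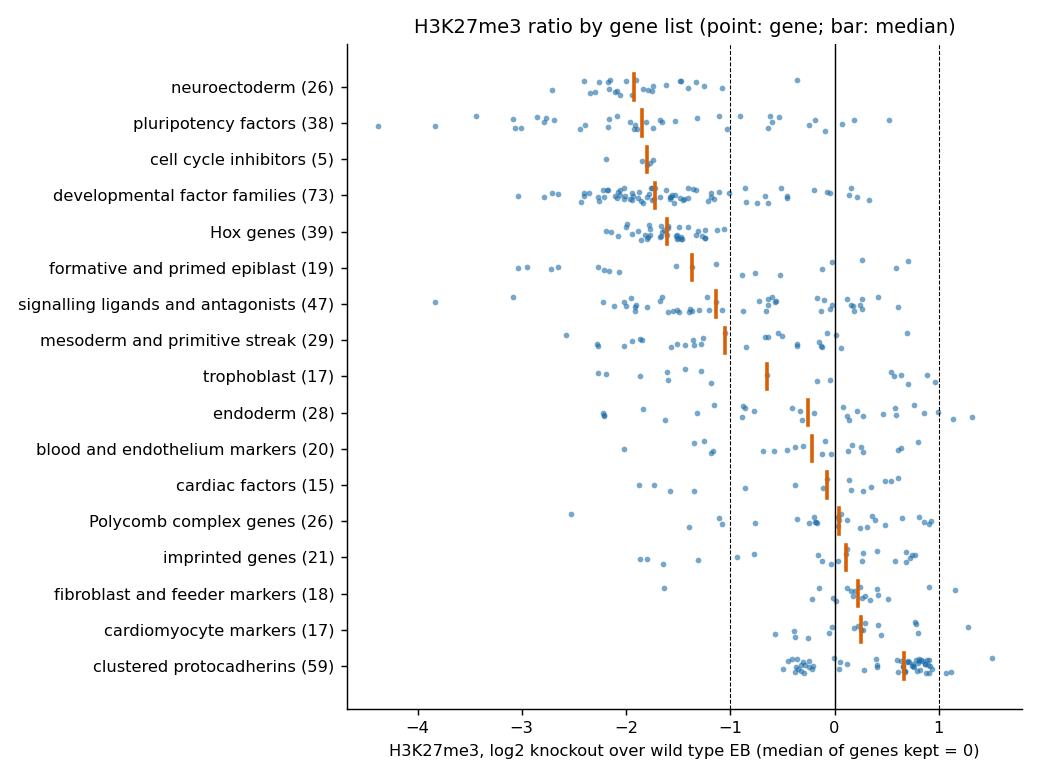
H3K27me3 ratios (x, log2 knockout over wild type EB, centred) of the genes kept on 17 lists, 1 point a gene and an orange bar at the list median; dashed lines mark 2-fold. Medians run from -1.92 for neuroectoderm to 0.67 for clustered protocadherins, and all Hox points lie left of the lower dashed line.

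Secreted signals had 25 of 47 kept genes lower, 0 higher and a median of -1.13. Of all genes kept, 8.50% were lower and 2.55% higher. Apart from Nodal and Fgf4, these held Fgf17 (22.9 and 5.18, ratio -2.22) and Gdf7, a BMP-type ligand (53.7 and 13.3, ratio -2.12). Cell cycle inhibitors were lower at 5 of 5 kept, with Cdkn1b and Cdkn2d not kept. RNA of the list fell for 4 of 7 tested and rose for 0, against 25.9% and 20.0% of all genes tested. Cdkn2a, the Ink4a and Arf locus and a known Polycomb target, had 30.7, 17.3, 66.7 and 21.1 in wild type ES, knockout ES, wild type EB and knockout EB (ratio -1.77). Its neighbour Cdkn2b had 16.6 and 4.86 in the EB libraries (ratio -1.85) and Cdkn1a, the p21 gene, 5.60 and 1.15 (ratio -2.19). RNA of these 3 did not pass the test, with log2 differences of 0.60, 0.14 and -0.11 (limma adjusted p = 0.16, 0.74 and 0.60). Cdkn1c, an imprinted inhibitor gene, had 23.6 and 7.23 (ratio -1.80), and its RNA fell by 2.50 (limma adjusted p = 0.0014). Imprinted genes had 4 lower and 0 higher of 21 kept (median 0.11). Igf2 had 14.0 and 14.1 in the EB libraries (ratio -0.12) although its RNA fell by 2.49 (limma adjusted p = 0.00084).

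Genes of the Polycomb machinery itself had 4 lower and 0 higher of 26 kept (8.50% and 2.55% over all genes kept), with a median of 0.04. Cbx7, the chromobox reader of ES cells, had 0.160 and 0.213 in ES and 9.28 in wild type EB against 1.55 in knockout EB (ratio -2.53). Its RNA rose from 11.6 to 81.1 FPKM (log2 difference 2.74, limma adjusted p = 0.00069). Bmi1 (25.1 and 10.3, ratio -1.39) and Phf19 (27.2 and 13.6, -1.11) were also lower. Kdm2b, which brings complex 1 to CG-rich promoters, had 10.2 and 21.4 (ratio 0.92), and Cbx2, another reader, 1.32 and 2.96 (ratio 0.91). RNA of the catalytic gene Ezh2 was 55.7 FPKM in wild type against 70.8 in knockout EB and did not pass (log2 difference 0.34, limma adjusted p = 0.061). RNA of Suz12, another core subunit, rose by 1.60 (limma adjusted p = 0.0013).

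Genes with more H3K27me3 in knockout EB had varied roles. Snn, a small membrane protein gene (mm10 chr16:11060945-11074985), had 4.78 in wild type ES, 4.43 in knockout ES, then 0.84 in wild type EB against 4.83 in knockout EB (ratio 2.10, counting interval 1.87 to 3.25, from 21 and 181 reads). Wild type EB was low and the other 3 libraries were alike. Its RNA was 38.8 and 40.7 FPKM in wild type EB against 9.31 and 16.6 in knockout EB (fell by 1.60, limma adjusted p = 0.0031). Chd3, a subunit of the NuRD remodelling complex (mm10 chr11:69343273-69369406), had 16.6, 26.0, 5.12 and 22.4 (ratio 1.95, from 128 and 839 reads). Chd3 RNA was 60.1 and 99.8 FPKM in wild type EB against 9.13 and 22.2 in knockout EB (fell by 2.36, limma adjusted p = 0.0062). Snx33, a sorting nexin gene, had 6.78, 5.52, 1.04 and 4.80 (ratio 1.85), and Zfp651, a zinc finger gene, 6.64, 8.67, 4.80 and 22.7 (ratio 2.06). Smad6, an inhibitor of BMP signalling, had 8.48, 17.8, 7 and 25.3 (ratio 1.69). Maml3, a NOTCH coactivator gene, had 129, 201, 44.8 and 153 (ratio 1.65). RNA of Snx33, Zfp651, Smad6 and Maml3 fell by 1.10, 1.18, 1.62 and 1.19 (limma adjusted p = 0.0026, 0.0041, 0.0056 and 0.0039). Wdr81, Ctdspl, Zfp362 and Tnnt3 also had lower RNA, with mark ratios of 1.94, 1.70, 1.70 and 1.67, while Wdr90 (1.80) and Npepl1 (1.69) had RNA that did not pass (limma adjusted p = 0.065 and 0.20).

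RNA was set beside the mark for the 9581 genes both kept and tested. The RNA and ChIP libraries are separate samples, but the labels do not say whether they came from separate cultures. Of these, 19.11% had higher and 32.4% lower RNA in knockout EB. Among the 858 tested genes with a 2-fold lower mark, RNA was higher at 354 (41.3%) and lower at 190 (22.1%). Among the 310 with a 2-fold higher mark, RNA was higher at 7 (2.26%) and lower at 221 (71.3%). Read from the RNA, the 1831 genes with higher RNA had a median mark ratio of -0.32, with 19.3% 2-fold lower and 0.382% 2-fold higher. The 3101 genes with lower RNA had a median of 0.24, with 6.13% lower and 7.13% higher. Over all 9581 genes the median was 0.02, with 8.96% lower and 3.24% higher. Across genes, which are not independent replicates, Spearman rho between the mark ratio and the RNA difference was -0.388 and Pearson r -0.347, with the EB state of each genotype shared by all points.

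**Figure D4:**
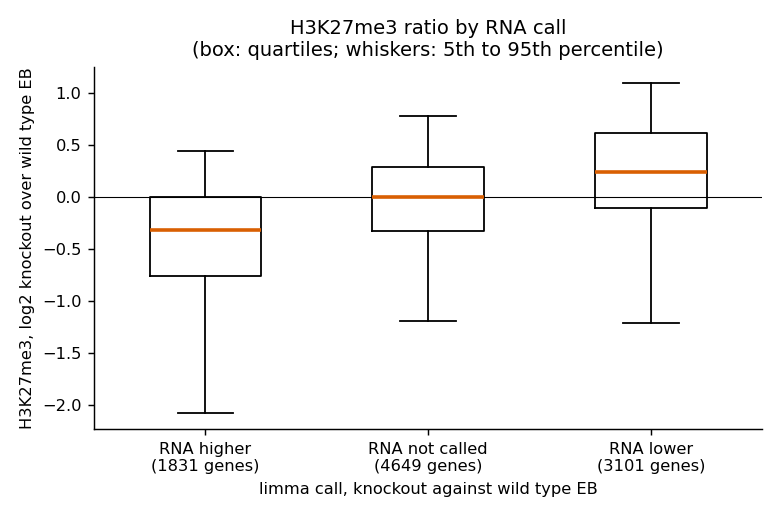
H3K27me3 ratio (y, log2 knockout over wild type EB, centred) of genes kept, split by the limma call of their RNA (x); boxes are quartiles with the median in orange and whiskers reach the 5th and 95th percentiles. Medians step up from -0.32 (RNA higher) to 0.24 (RNA lower).

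The lower class was then split by RNA. The 354 with higher RNA had median marks of 2.04, 1.63, 11.98 and 3.46 in wild type ES, knockout ES, wild type EB and knockout EB. Their median RNA was 14.3 FPKM in wild type ES and 3.50 in wild type EB against 13.8 in knockout EB, and median H3K4me3 was 15.6 in wild type EB against 20.1 in knockout EB. Pou5f1 and Nodal are among them. The 190 with lower RNA had median marks of 5.80, 3.62, 23.8 and 8.14, median RNA of 0.289, 5.78 and 0.922 FPKM, and median H3K4me3 of 19.3 and 10.3. Hoxa10, Pax6 and Nkx2-5 are among them. RNA of another 314 lower genes did not pass the test and 436 were not tested. The 221 genes with a higher mark and lower RNA had median marks of 7.68, 8.67, 3.56 and 9.87. Their median RNA was 17.5 FPKM in wild type against 5.45 in knockout EB. The EB mark and the EB RNA chose these classes, so the direction of their EB medians of both follows from that choice. Over 15196 genes, the H3K27me3 and H3K4me3 ratios had a Spearman rho of -0.109.

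In ES cells the same contrast had 154 of 15220 (1.01%) 2-fold lower and 85 (0.558%) 2-fold higher. Of the genes lower in EB, 58 were also lower in ES, which is 4.48% of the EB genes and 37.7% of the ES genes. Of those higher in EB, 16 were higher in ES (4.12% and 18.8%). In the opposite sense, 4 genes were lower in EB and higher in ES, and 2 the reverse. The ratio of the lower EB class in ES had a median of -0.36 and that of the higher class 0.31. The EB and ES ratios share no library, and their Spearman rho over the genes kept was 0.332.

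Locus length moved with the share of lower genes. Genes were ranked by length into 10 bins of equal size. In the bin of the shortest loci (0.41 to 5.59 kb) 28.9% of genes were lower and 3.00% higher, and in that of the longest (147 to 2961 kb) 1.26% were lower and 3.21% higher. The median ratio was -0.24 in the shortest and 0.07 in the longest bin. The lower class had a median locus of 9.09 kb, the higher class 23.0 kb and the genes between 31.3 kb. In loci under 10 kb, 599 of 2807 genes were lower after centring on those loci. With the centring used elsewhere, such loci had a median of -0.12. List medians in them were -1.43 for trophoblast (9 genes), -1.15 for endoderm (11), -1.21 for imprinted genes (6) and -1.21 for blood and endothelium (4). They were -0.03 for cardiomyocyte markers (6), 0.25 for germline genes (4), 0.35 for fibroblast and feeder markers (4) and 0.34 for Zfp genes (31). Medians by chromosome lay between -0.12 (chromosome 1) and 0.06 (chromosome 3) over 20 chromosomes. The part of locus length in the counts was not tested.

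**Figure D5:**
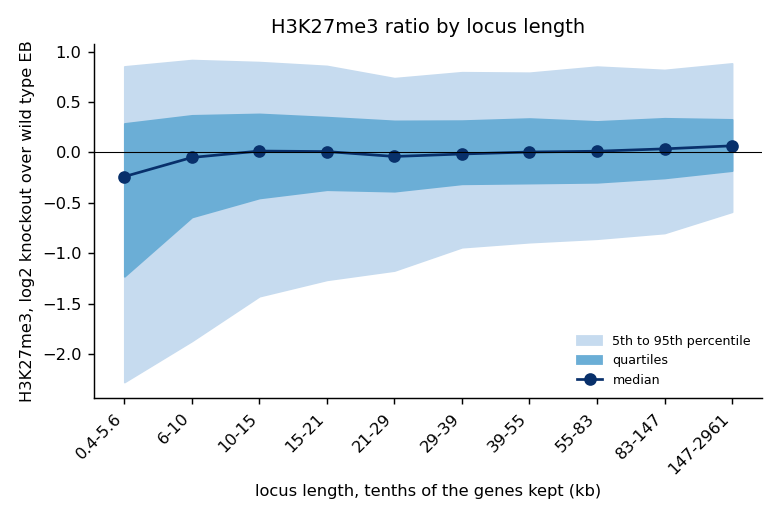
H3K27me3 ratio (y, log2 knockout over wild type EB, centred) in 10 bins of locus length (x, kb); the line joins medians, the dark band spans the quartiles and the pale band the 5th to 95th percentiles. The lower edge rises from the shortest loci, where 28.9% of genes are 2-fold lower, to the longest, where 1.26% are.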

How the data were processed

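H3K27me3 and H3K4me3 were measured by ChIP-seq (1 library in each of 4 groups), RNA by RNA-seq (2 in each). The 4 input libraries were not analysed here. The members and gene lists were chosen with earlier results of these data known.

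The authors deposited 1 signal value per gene and ChIP library. The table is titled as RPKM on promoters, but the values grew with locus length, and the window behind them is not given in the sources used here. They were whole multiples of 1 step (99.99% to 100% of H3K27me3 values within 0.02 of a whole number), so the reads were recovered. With 1 library a group no count test has residual degrees of freedom, and none was run. The RNA table holds FPKM, per the file headers in the format of Cufflinks. The submitters' processing notes name the build mm10 and, in no order, Bowtie2, HTSeq, DESeq2, Cufflinks 2.2.1 and STAR 2.6.0a. No aligner setting or read filter is given in the sources used here.

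From these values a log2 ratio was computed per gene with 0.25 added, over genes with a mean of at least 0.5, centred on their median. Genes past 2-fold were counted. Counting intervals (95%) came from exact Clopper-Pearson limits on the knockout share of the reads. RNA was tested with limma 3.58.1 in R 4.3.3 on log2(FPKM + 1), over 15428 genes with at least 1 FPKM in 2 of 8 libraries. The test used all 4 groups, no replicate block, two-sided moderated statistics with trend and Benjamini-Hochberg adjustment at 0.05 (4 residual degrees of freedom). RNA fold changes are on that scale and understate changes of low genes. Both procedures were tested on simulated data. For 120 repeated symbols the entry with the highest mean was used. Of the ChIP genes, 17759 matched the RNA table by symbol and 1257 by a RefSeq synonym (92.9%). A further 25 gene names had been turned into dates, and 65 kept genes had the same 4 values as another gene. Loci come from the RNA table.

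Named genes were fixed anchors, the 12 highest and 12 lowest ratios where the mean signal reached 2 (unnamed models, receptors of smell and small RNAs left out), up to 4 members per list with the largest ratio in size, and members of the pluripotency, Hox, mesoderm and Polycomb lists. Of 25 lists, those without a result in the text above are given under the other observations. A check of promoter base composition over classes was void, since fewer than 80% of genes matched a promoter. Alternatives were other pseudocounts, filters, scalings, locus lengths and fold limits, RNA libraries left out 1 at a time and the replicate block. Counting identical values once and asking for 50 reads were added after seeing the data. Some items are not reported here.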

Additional observations from a re-analysis of the deposited data

Results flagged for a closer look

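Fgf4 is the named gene whose EB and ES differences were opposite and both past 2-fold. Its H3K27me3 ratio was -3.08 in EB (32.7 in wild type, 4.00 in knockout) and 1.07 in ES (0.187 and 0.667). The ES values are low, and the difference between EB and ES was not tested, with 1 library a group.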

How the results depend on the processing

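The count of 2-fold lower genes (1294) stayed within 1.5 times under other pseudocounts, filters and scalings. It was 599 in loci under 10 kb alone, where 2807 genes were left, 2492 at 1.5-fold and 567 at 3-fold. The count of higher genes (388) was 186 with a pseudocount of 1, 658 as deposited, 810 scaled to the summed signal, 141 in loci under 10 kb, 1907 at 1.5-fold and 18 at 3-fold. The median mark ratio of genes with higher RNA (-0.3166) was -0.2274 with a pseudocount of 1, -0.2314 with no filter, -0.4822 with a mean of at least 2, -0.1923 as deposited, -0.1457 scaled to the summed signal and -0.7592 in loci under 10 kb. That of genes with lower RNA (0.2449) was 0.1961 with a pseudocount of 1, 0.2805 with a mean of at least 2, 0.3693 as deposited, 0.4195 scaled to the summed signal and 0.1805 in loci under 10 kb. Leaving out 1 EB RNA library at a time gave 1826 to 2637 genes with higher RNA and 2464 to 3498 with lower RNA, and median mark ratios of -0.3971 to -0.3395 and 0.2342 to 0.2621. The fewest calls came without knockout replicate 1 (1826 and 2464), and 2585 genes had lower RNA without wild type replicate 2; the remaining library of the group was taken to vary like the others. Genes with lower RNA numbered 2321 of 9912 when the mean had to reach 5 FPKM. With the replicate block, RNA calls were 3153 higher and 4054 lower against 3082 and 3992 without. Same-numbered RNA libraries had deviations correlated between 0.0678 and 0.311, positive in all 6 pairs but above 0.1 in 3 of them, so the numbers were not taken to pair the samples. A shared batch was not tested. Of 2027 values of named genes under alternatives, 1820 moved by less than their counting interval, 207 moved more and 0 changed sign past 2-fold. Of 258 list medians, 229 stayed and 29 moved. The cause of these moves was not tested. Depth limits single genes: wild type EB had a median of 39 reads per gene.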

Other observations

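Clustered protocadherins, neuronal cell adhesion genes in 3 neighbouring arrays, differed by array. The 14 Pcdha genes had ratios from -0.49 to -0.21 (median -0.31), and the 22 Pcdhg genes ratios from 0.60 to 0.90 (median 0.80). The median signal of Pcdhg genes was 84.1 in wild type ES, 78.1 in knockout ES, 55.9 in wild type EB against 97.9 in knockout EB, and that of Pcdha genes 88.6, 69.6, 74.5 and 65.4. Genes of each of these arrays share their last exons, so their loci overlap and each array is close to 1 measurement. The 22 Pcdhb genes, which do not share exons, had a median of 0.66, with 19 above 0 and Pcdhb22 highest at 1.51 (1.44 in wild type and 4.99 in knockout EB). The split by array was made after the values were seen.

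Epcam, Cdh1, Esrp1 and Cldn3 were picked after their values were seen. No list of epithelial genes was counted, so they are single examples. Epcam, an epithelial adhesion gene, had 0.880 in wild type ES, 0.454 in knockout ES, 15.0 in wild type EB against 1.84 in knockout EB (ratio -2.99), and its RNA rose by 1.10 (limma adjusted p = 0.00091). Cdh1, E-cadherin, had 2.05, 1.52, 29.5 and 5.60 (ratio -2.47), and its RNA rose by 0.74 (limma adjusted p = 0.0037). Esrp1, an epithelial splicing regulator, had 3.87, 2.32, 24.5 and 3.82 (ratio -2.73), and its RNA rose by 1.08 (limma adjusted p = 0.0013). Cldn3, a claudin, had 1.60, 0.934, 16.9 and 2.13 (ratio -2.97), with RNA that did not pass (limma adjusted p = 0.63).

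The lists not described above follow. For comparison, 8.50% of all genes kept were lower and 2.55% higher, and RNA rose for 20.0% of all genes tested. Genes of DNA replication had a median ratio of -0.28 over 18 kept (0 past 2-fold), while RNA of 20 of 28 tested rose. Zinc finger genes named Zfp had 0.18 over 221 (6 lower, 11 higher), vomeronasal receptors 0.07 over 107 (2 lower, 0 higher) and olfactory receptors -0.14 over 66 of 1101 (2 lower, 2 higher). The olfactory median is positive (0.03) when scaled to the summed signal. Of ribosomal protein genes 1 of 79 was kept (Rpl3l, ratio -0.52) and of 2-cell-stage genes 1 of 9 in the table (Zfp352, 0.20). Of replication-dependent histones 2 of 68 were kept, Hist3h2ba at -2.13 and Hist1h2be at 0.19. Summed trophoblast marker RNA was 12.5 and 14.0 FPKM in wild type against 22.1 and 13.5 in knockout EB.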
